A study of Homo sapiens with 12 samples.

Results

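Homologous recombination and checkpoint repair genes were examined as a listed set of 36, covering the sensing of DNA breaks, the replication checkpoint, the BRCA complexes, strand exchange, resection and dissolution, the Fanconi anaemia pathway and mismatch sensing. The list was given by name and was chosen with earlier results of these data known, so its counts are no independent finding. A gene was read from the probe set with its highest mean over all 12 arrays, and only probe sets annotated to 1 gene symbol were used. Of the 36 genes, 32 were measured among 19775 genes in all. MRE11A was measured under its newer symbol MRE11. ATRIP was left out because its 3 probe sets also carry the symbol TREX1, and the other 3 listed genes were not analysed here.

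The arrays compared 2 stable lines of PC9, a human lung adenocarcinoma cell line whose growth depends on mutant EGFR. Cells stably expressing pre-miR-371, the hairpin precursor that yields miR-371-3p and miR-371-5p, were set against cells carrying a GFP vector, and each line received erlotinib, an EGFR kinase inhibitor, at 2 μM or DMSO for 24 h. The 4 groups were therefore pre-miR-371 cells in erlotinib, GFP vector cells in erlotinib, pre-miR-371 cells in DMSO and GFP vector cells in DMSO, with 3 Affymetrix Hgu133plus2 arrays each. Because each arm is a single stable line, an effect of the miRNA and a property of that line cannot be told apart. The methods describe replicates throughout the study as biological and drawn from separate experiments, but nothing in the labels ties the arrays within a group to different cultures, so that the spread between arrays, which the p-values measure, may be technical in part. All values are the deposited log2 expression values, and a difference of 1 on this scale is a 2-fold difference. The median of an array was 4.31 to 4.41, and the number of arrays limits the precision. Epithelial markers (7 genes) averaged 12.34, 12.29, 12.36 and 12.38 in those 4 groups, while fibroblast markers averaged 3.86 to 4.04. The mean of 4 leukocyte markers was 3.97 in pre-miR-371 cells and 3.94 in GFP vector cells in erlotinib, against 3.59 and 3.61 in DMSO, where 1 of the 4, LYZ, was higher in both lines (1.26 and 1.37) and PTPRC was at 2.78 to 2.86. The mean of 3 endothelial markers was 6.40 in pre-miR-371 cells and 6.44 in GFP vector cells in erlotinib, against 5.86 and 5.81 in DMSO, with 2 of the 3 genes higher in both lines, and the part of either list in the erlotinib results was not tested.

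In homologous recombination, a broken or stalled DNA end is sensed, cut back to single-stranded DNA, and paired with the intact sister chromatid, which serves as the template for repair. The kinases ATM and ATR signal from such ends through CHEK2 and CHEK1 to hold the cell cycle, and the Fanconi anaemia proteins direct the same machinery to cross-links between the DNA strands. Because a sister chromatid exists only after replication, many of these genes are known to be transcribed mainly in S and G2 phase, from promoters bound by E2F, NF-Y and the DREAM complex. The genes were therefore set beside 28 S phase genes (replication licensing, polymerases and nucleotide supply) and 25 mitosis genes. In bulk RNA, fewer cells in S or G2 phase and less RNA of a gene per cell cannot be told apart.

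The mature products of the expressed hairpin are shown because the lines were built to differ in its expression, with the seed (bases 2 to 8) in capitals. Both come from RefSeq (GRCh38.p14, chromosome 19, plus strand), at chr19:53787680-53787699 for the 5p and chr19:53787716-53787738 for the 3p product.
hsa-miR-371a-5p: aCUCAAACugugggggcacu
hsa-miR-371a-3p: aAGUGCCGccaucuuuugagugu

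Promoter windows of 250 bases before to 50 bases after the start (RefSeq, GRCh38.p14) were found for 29 of the 32 measured genes and searched on both strands for letters of the E2F motif (TTTCCCGC, TTTCGCGC, TTTGCCGC or TTTGGCGC), the CHR motif of late cell cycle genes (TTTGAA) and the NF-Y motif (CCAAT). A gene was counted where any of its windows held the letters. E2F letters stood in 6 repair genes (20.7%), against 64.0% of S phase genes, 10.0% of mitosis genes and 5.36% of all genes with a window. CHR letters stood in 4 repair genes (13.8%), against 4.0% of S phase genes, 70.0% of mitosis genes and 15.6% of all genes. NF-Y letters stood in 18 repair genes (62.1%), against 60.0% of S phase genes, 80.0% of mitosis genes and 41.7% of all genes. Counted per window, all 21490 windows of the genes tested held the E2F, CHR and NF-Y letters in 4.07%, 12.3% and 34.5%.

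The windows of CLSPN, BLM, BRIP1 and ATM are shown in full because these genes stand for the patterns described below: the fall in GFP vector cells of greatest size, a fall in both lines without E2F letters, a fall that passed in GFP vector cells and not in pre-miR-371 cells, with a difference that passed, and a rise in both lines. Capitals mark any of the 3 motifs. CLSPN holds 1 E2F match and 3 NF-Y matches. BLM holds 3 NF-Y matches, BRIP1 holds 1 CHR and 3 NF-Y matches, and this window of ATM, the first of 2, holds 1 CHR and 1 NF-Y match. The windows lie at chr1:35769929-35770228 (minus strand), chr15:90717096-90717395 (plus), chr17:61863479-61863778 (minus) and chr11:108222817-108223116 (plus).
CLSPN: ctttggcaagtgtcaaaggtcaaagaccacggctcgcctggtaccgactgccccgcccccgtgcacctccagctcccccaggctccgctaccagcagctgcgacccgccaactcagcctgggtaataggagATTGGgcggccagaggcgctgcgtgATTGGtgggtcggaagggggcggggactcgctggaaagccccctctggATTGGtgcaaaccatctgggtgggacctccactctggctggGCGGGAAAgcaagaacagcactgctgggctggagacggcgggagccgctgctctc
BLM: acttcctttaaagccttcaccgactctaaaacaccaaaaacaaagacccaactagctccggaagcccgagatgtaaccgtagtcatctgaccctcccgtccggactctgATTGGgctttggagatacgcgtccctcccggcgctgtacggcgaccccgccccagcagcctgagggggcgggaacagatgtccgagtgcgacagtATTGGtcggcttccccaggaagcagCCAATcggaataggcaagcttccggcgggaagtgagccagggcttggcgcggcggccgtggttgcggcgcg
BRIP1: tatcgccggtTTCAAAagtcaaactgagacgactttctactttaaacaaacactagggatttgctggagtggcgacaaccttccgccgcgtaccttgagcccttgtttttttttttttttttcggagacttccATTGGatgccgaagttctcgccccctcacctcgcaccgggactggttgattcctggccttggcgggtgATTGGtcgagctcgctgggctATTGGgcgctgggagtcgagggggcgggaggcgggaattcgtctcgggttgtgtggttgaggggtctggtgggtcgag
ATM: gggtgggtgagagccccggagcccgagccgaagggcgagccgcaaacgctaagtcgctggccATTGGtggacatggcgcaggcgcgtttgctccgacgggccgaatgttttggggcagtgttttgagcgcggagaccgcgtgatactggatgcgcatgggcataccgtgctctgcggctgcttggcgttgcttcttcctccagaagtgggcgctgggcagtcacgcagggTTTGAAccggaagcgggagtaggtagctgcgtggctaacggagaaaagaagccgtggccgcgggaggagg

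The other 5 genes with E2F letters are shown with up to 40 bases on each side, since the position of the letters can be compared between them. Capitals mark the E2F letters. The stretches lie at chr1:241848168-241848253 (EXO1, plus strand), chr9:83980733-83980820 (RMI1, plus), chr3:133661901-133661988 (TOPBP1, minus), chr7:152676092-152676160 (XRCC2, minus) and chr2:47783108-47783194 (MSH6, plus).
EXO1: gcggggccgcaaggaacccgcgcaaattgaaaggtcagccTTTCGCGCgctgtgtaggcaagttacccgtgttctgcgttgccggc
RMI1: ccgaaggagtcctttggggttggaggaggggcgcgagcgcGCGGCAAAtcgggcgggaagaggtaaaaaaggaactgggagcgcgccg
TOPBP1: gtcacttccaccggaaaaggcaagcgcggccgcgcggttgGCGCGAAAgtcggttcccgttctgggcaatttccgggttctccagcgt
XRCC2: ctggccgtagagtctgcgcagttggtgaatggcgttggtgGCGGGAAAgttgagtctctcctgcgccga
MSH6: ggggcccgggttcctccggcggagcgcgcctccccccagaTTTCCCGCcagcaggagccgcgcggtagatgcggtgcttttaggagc

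All 6 genes with E2F letters were lower with erlotinib in both lines, as were 22 of the 32 repair genes and 19.2% of all genes. The difference of responses was positive and passed for 3 of the 6, CLSPN, EXO1 and RMI1. It did so for 15 of the 32 repair genes and 1.44% of all genes. A link between the letters and the response was not tested. A match is a description of the letters, not of a bound site.

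Erlotinib lowered most of the repair genes in both lines. In pre-miR-371 cells 22 of 32 were lower, 3 were higher and 7 did not pass the test (limma, Benjamini-Hochberg adjusted p under 0.05 over 19775 genes), where 22.2% of all genes were lower and 24.8% higher. In GFP vector cells 28 were lower, 2 were higher and 2 did not pass, where 23.4% of all genes were lower and 26.5% higher. The median log2 fold change of the repair genes was -0.34 in pre-miR-371 cells and -0.76 in GFP vector cells, and that of all genes was -0.03 and 0.00. With arrays centred on their medians, the repair genes were at -0.53 and -0.95, all genes at -0.22 and -0.19, and 27 and 28 repair genes were lower. The fall passed the test in both lines for 22 genes (19.2% of all genes did so), and in GFP vector cells but not pre-miR-371 cells for CHEK2, TIMELESS, BRCA1, BRIP1, RAD51AP1 and FANCG. The difference between the lines itself passed for TIMELESS, BRCA1, BRIP1 and RAD51AP1, and did not for CHEK2 (adjusted p = 0.147) and FANCG (adjusted p = 0.578). With a fold over 1.5 as a further condition, 10 genes were lower in pre-miR-371 cells and 20 in GFP vector cells. Among all 19775 genes these counts were 1845 and 2311. The 3 erlotinib arrays lay below the 3 DMSO arrays of the same line for 24 repair genes in pre-miR-371 cells and 28 in GFP vector cells, which was so for 27.8% and 25.7% of all genes.

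**Figure D1:**
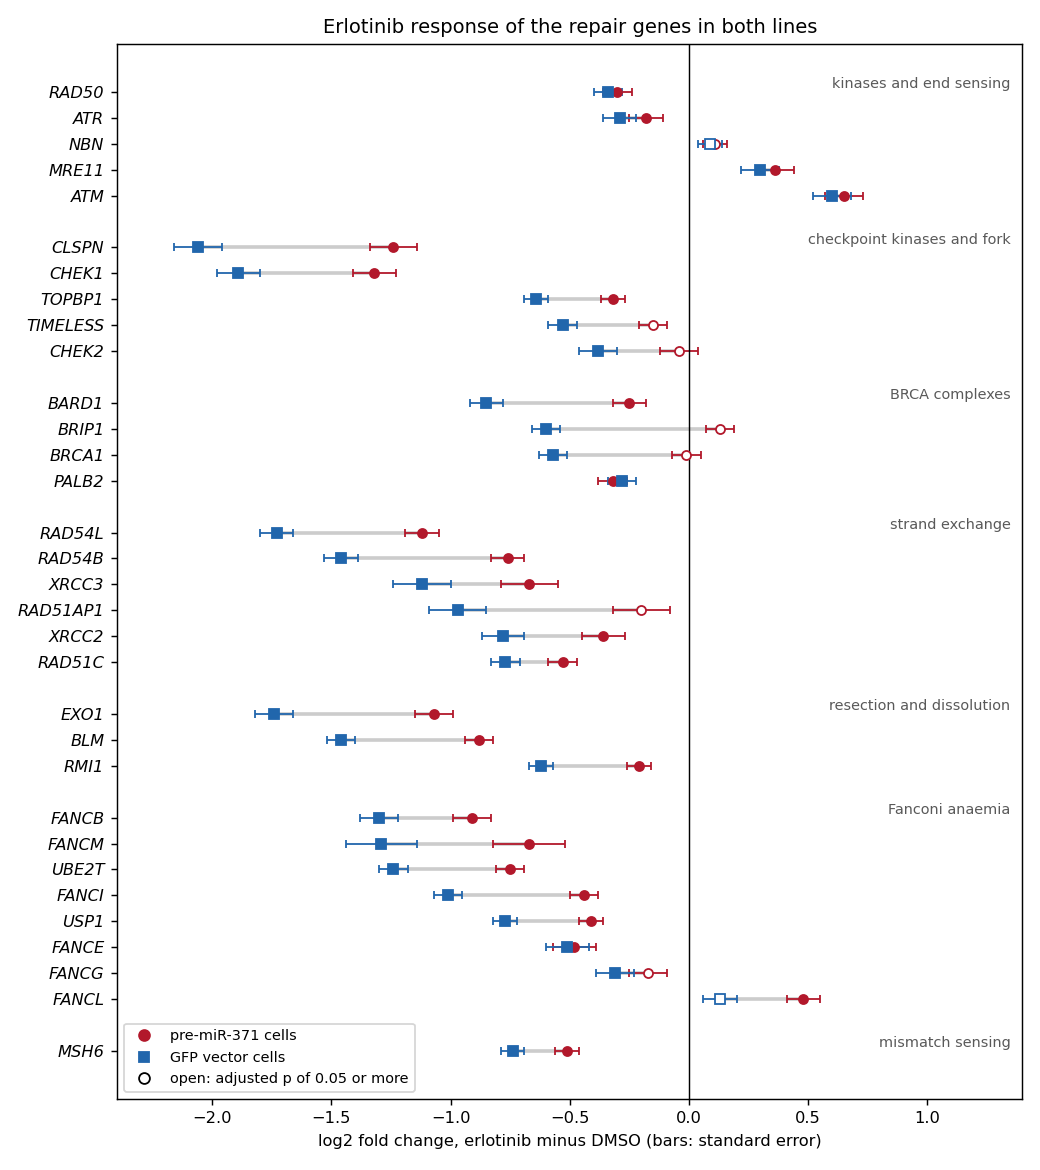
Log2 fold change of each of the 32 repair genes with erlotinib (x axis, erlotinib minus DMSO; bars are standard errors), in pre-miR-371 cells (red circles) and GFP vector cells (blue squares), grouped by role; open symbols did not pass an adjusted p of 0.05. Blue squares lie left of red circles for 31 of 32 genes, and ATM, MRE11, NBN and FANCL lie right of 0 in both lines.

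In the presence of erlotinib, 22 of the 32 genes were higher in pre-miR-371 cells than in GFP vector cells and none was lower, where 6.5% of all genes were higher and 9.46% lower. In DMSO no repair gene was higher and CLSPN alone was lower, where 1.62% of all genes were higher and 3.64% lower. The difference of the erlotinib responses, pre-miR-371 minus GFP vector, was positive and passed the test for 15 genes and was negative for none, where 1.44% of all genes were positive and 0.561% negative. With a fold over 1.5 as well, as the study's array criterion has it, 2 genes were higher in erlotinib, 0 were lower in DMSO and 7 had a positive difference. Among all 19775 genes these counts were 136, 46 and 102. These comparisons share arrays with each other, so their counts are not independent. The counts beside those of all genes are descriptions, since the list was chosen with earlier results of these data known. At an unadjusted p under 0.05, limma gave 24 genes higher and 0 lower in erlotinib, 0 higher and 10 lower in DMSO, and 24 positive and 0 negative for the difference. The methods' t-test gave 24 higher and 0 lower in erlotinib and 1 higher and 10 lower in DMSO, and after Benjamini-Hochberg adjustment 15 and 0 in erlotinib and 0 and 0 in DMSO. Median log2 differences were 0.30 between the lines in erlotinib, -0.09 between the lines in DMSO and 0.40 for the difference of responses, against -0.01, 0.00 and -0.01 for all genes.

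The sensors of broken ends moved in both directions with erlotinib: ATM and MRE11 rose in both lines, ATR and RAD50 fell in both, and NBN did not pass. Of ATM, ATR, MRE11, RAD50 and NBN, none passed the test between the lines in erlotinib, in DMSO or in the response, as was also so for PALB2, FANCE, FANCG, FANCM and XRCC3. The fold changes of the sensors with erlotinib ranged from -0.30 to 0.65 in pre-miR-371 cells and from -0.34 to 0.60 in GFP vector cells. ATM, the kinase that responds to double-strand breaks, measured 7.89, 7.82 and 7.92 in pre-miR-371 cells and 8.02, 8.03 and 7.71 in GFP vector cells in erlotinib, against 7.20, 7.16 and 7.31 in pre-miR-371 cells and 7.37, 7.31 and 7.28 in GFP vector cells in DMSO. Every erlotinib array was above every DMSO array. ATM rose with erlotinib in both lines, with log2 fold changes of 0.65 in pre-miR-371 cells (adjusted p = 3.24e-05, limma) and 0.60 in GFP vector cells (adjusted p = 5.87e-05) and a standard error of 0.08 for each. Its probe set may also bind other transcripts, but 3 of its 6 probe sets rose in both lines and none fell.

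MRE11, the nuclease of the complex that first binds a broken end, measured 8.93, 8.88 and 8.88 in pre-miR-371 cells and 8.79, 8.65 and 8.69 in GFP vector cells in erlotinib, against 8.55, 8.58 and 8.47 in pre-miR-371 cells and 8.55, 8.43 and 8.25 in GFP vector cells in DMSO. The erlotinib arrays were again the higher ones in each line, with log2 fold changes of 0.36 (adjusted p = 0.00140) and 0.30 (adjusted p = 0.00444). Both calls ended when arrays were centred on their medians or all 3 MRE11 probe sets were averaged, and a dim probe set (mean 3.47) was lower in pre-miR-371 cells (-0.58). The other 2 proteins of that complex did not move with it. RAD50, its ATPase, was lower with erlotinib in both lines (-0.30 and -0.34), and NBN, which links the complex to ATM, passed no comparison (0.11 with adjusted p = 0.103 in pre-miR-371 cells and 0.09 with adjusted p = 0.160 in GFP vector cells). For NBN, 3 other probe sets were lower in both lines, and 1 other probe set of RAD50 was higher in pre-miR-371 cells (0.44), so the direction of both depends on the probe set read. ATR, the kinase of single-stranded DNA, was lower in both lines (-0.18 and -0.29), and its call in pre-miR-371 cells was lost when any 1 of 5 arrays was left out (adjusted p up to 0.125).

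CLSPN and CHEK1, the checkpoint genes that act with ATR, had the falls of greatest size among the 32 in both lines. CLSPN encodes claspin, the adaptor through which ATR activates CHEK1. It measured 5.54, 5.54 and 5.30 in pre-miR-371 cells and 5.15, 5.16 and 4.85 in GFP vector cells in erlotinib, against 6.66, 6.83 and 6.62 in pre-miR-371 cells and 7.22, 7.05 and 7.07 in GFP vector cells in DMSO. The 4 groups did not overlap, and the lines changed order between the treatments. The fold change with erlotinib was -1.24 (standard error 0.10) in pre-miR-371 cells and -2.06 (standard error 0.10) in GFP vector cells, which left 42.2% and 24.0% of the DMSO level. In DMSO CLSPN was lower in pre-miR-371 cells by a log2 fold change of -0.41 (adjusted p = 0.0397), a call that was lost when any 1 of 7 arrays was left out (adjusted p up to 0.140). In erlotinib CLSPN was higher in pre-miR-371 cells by 0.41 (adjusted p = 0.0187), a call lost when any 1 of 3 arrays was left out (up to 0.0668). The level in GFP vector cells in erlotinib was close to the array medians, where the size of a fold is uncertain. All 4 CLSPN probe sets were lower in GFP vector cells and 3 of 4 in pre-miR-371 cells, and the other 3 were dimmer (mean 3.31 to 4.0). Those 3 did not differ between the lines in erlotinib (0.02, -0.06 and -0.07). Their differences of responses (0.23, 0.55 and 0.1) did not pass (adjusted p = 0.542, 0.226 and 0.895, limma over all probe sets). The call between the lines in erlotinib was also lost with the mean of all probe sets.

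CHEK1, the kinase that restrains the cell cycle when replication stalls, measured 7.99, 8.05 and 8.20 in pre-miR-371 cells and 7.47, 7.26 and 7.31 in GFP vector cells in erlotinib, against 9.29, 9.47 and 9.46 in pre-miR-371 cells and 9.24, 9.35 and 9.12 in GFP vector cells in DMSO. The lines overlapped in DMSO and separated in erlotinib. The log2 fold change of CHEK1 with erlotinib was -1.32 in pre-miR-371 cells and -1.89 in GFP vector cells, and in erlotinib the lines differed by 0.74 (standard error 0.09, adjusted p = 3.43e-04). Of its 4 probe sets 3 fell in both lines, while the dimmest of them rose (0.94 in pre-miR-371 cells and 1.64 in GFP vector cells), and which transcripts that probe set reads was not tested. TOPBP1, which activates ATR, was lower in both lines (-0.32 and -0.64), whereas TIMELESS, a replication fork protein, and CHEK2, the kinase downstream of ATM, passed the test in GFP vector cells and not in pre-miR-371 cells. Their fold changes were -0.15 and -0.04 in pre-miR-371 cells (adjusted p = 0.0554 and 0.740) and -0.53 and -0.38 in GFP vector cells. The responses of CLSPN, CHEK1 and TIMELESS differed between the lines, and those of TOPBP1 and CHEK2 missed the threshold (0.31 with adjusted p = 0.0620 and 0.35 with adjusted p = 0.147). The call was lost for CHEK1 when any 1 of 10 arrays was left out (adjusted p up to 0.0964) and for TIMELESS when any 1 of 11 was (up to 0.0954).

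**Figure D2:**
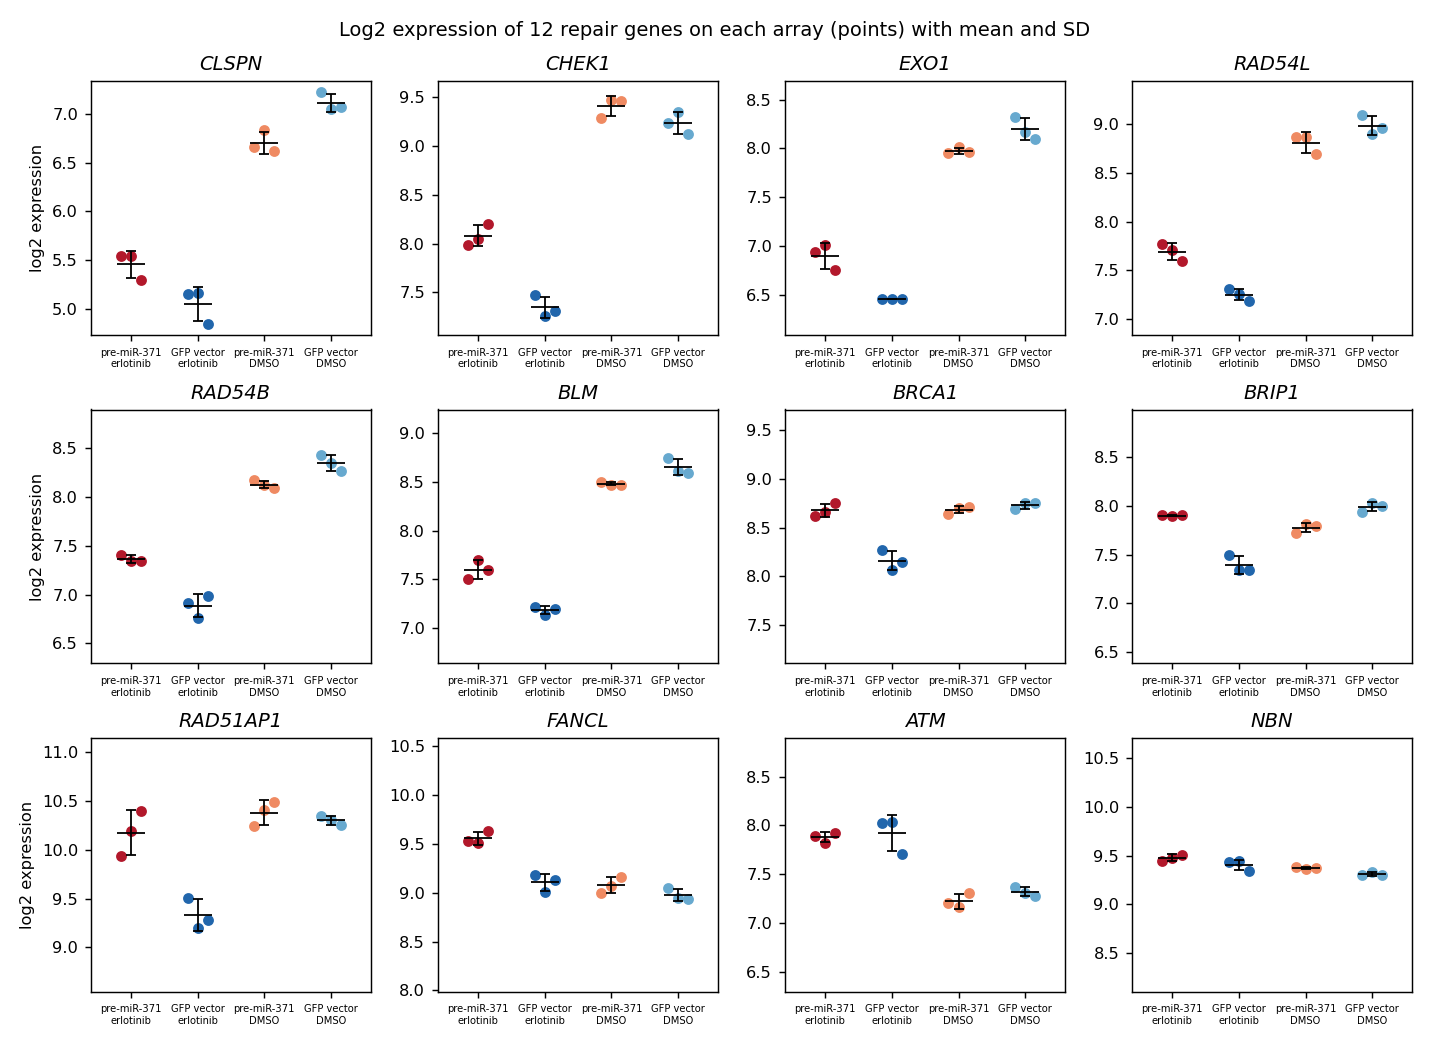
Log2 expression (y axes, all spanning the same range) of 12 repair genes on each array (points) with the mean and SD (n = 3) of pre-miR-371 cells in erlotinib, GFP vector cells in erlotinib, pre-miR-371 cells in DMSO and GFP vector cells in DMSO. In BRCA1, BRIP1 and RAD51AP1 the GFP vector cells in erlotinib lie below the other 3 groups, in ATM both erlotinib groups lie above both DMSO groups, and in FANCL the pre-miR-371 cells in erlotinib lie above the others.

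Among the BRCA complexes, 3 of 4 genes were higher in pre-miR-371 cells in erlotinib, and none passed the test in DMSO. BRCA1, a ubiquitin ligase needed for resection and for loading the strand exchange protein, measured 8.62, 8.66 and 8.75 in pre-miR-371 cells and 8.27, 8.07 and 8.15 in GFP vector cells in erlotinib, against 8.64, 8.70 and 8.71 in pre-miR-371 cells and 8.69, 8.75 and 8.75 in GFP vector cells in DMSO. The pre-miR-371 arrays overlapped between erlotinib and DMSO, and the GFP vector arrays did not. With erlotinib it changed by -0.01 in pre-miR-371 cells (adjusted p = 0.919) and -0.57 in GFP vector cells (adjusted p = 6.06e-06) on the log2 scale, each with a standard error of 0.06, and the difference of the responses was 0.56 (standard error 0.09, adjusted p = 0.00926). The other BRCA1 probe set was lower in pre-miR-371 cells as well (-0.30), and its difference of responses, 0.36, did not pass.

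BRIP1, the helicase that binds BRCA1, measured 7.90, 7.89 and 7.90 in pre-miR-371 cells and 7.50, 7.34 and 7.34 in GFP vector cells in erlotinib, against 7.72, 7.81 and 7.79 in pre-miR-371 cells and 7.94, 8.03 and 8.0 in GFP vector cells in DMSO. In DMSO the pre-miR-371 arrays all lay below the GFP vector arrays (-0.22, adjusted p = 0.0574), and in erlotinib they all lay above them. In pre-miR-371 cells the erlotinib arrays were the higher ones, but the change of 0.13 did not pass (adjusted p = 0.106). In GFP vector cells it fell by 0.60 on the log2 scale (adjusted p = 2.52e-06). The difference of the responses was 0.72 (standard error 0.08, adjusted p = 0.00615). The other BRIP1 probe set, dimmer with a mean of 5.55, also fell in GFP vector cells (-1.0). In pre-miR-371 cells it was at -0.31 (adjusted p = 0.0604, limma), and its difference of responses, 0.69, did not pass (adjusted p = 0.0842). BARD1, the partner of BRCA1 in the ligase, was lower in both lines (-0.25 and -0.85) with a difference of 0.60 (adjusted p = 0.00926). PALB2, which bridges the BRCA proteins, behaved otherwise: it was lower in both lines (-0.32 in pre-miR-371 cells and -0.28 in GFP vector cells, standard error 0.06 each), and its difference of -0.04 (standard error 0.08, adjusted p = 0.878) was the single negative value among the 32.

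The genes of strand exchange were lower in all 6 cases in GFP vector cells and in 5 of 6 in pre-miR-371 cells. RAD54L, a motor protein that drives strand invasion, measured 7.77, 7.71 and 7.60 in pre-miR-371 cells and 7.31, 7.26 and 7.19 in GFP vector cells in erlotinib, against 8.87, 8.87 and 8.69 in pre-miR-371 cells and 9.09, 8.90 and 8.96 in GFP vector cells in DMSO. No erlotinib array reached the DMSO arrays, and in erlotinib the 2 lines did not overlap. This was a fold change of -1.12 (standard error 0.07) in pre-miR-371 cells and -1.73 (standard error 0.07) in GFP vector cells, or 46.0% and 30.1% of the DMSO level. RAD54B, its paralog, followed the same course, with 59.0% and 36.3% of the DMSO level left and a difference of responses of 0.70 (standard error 0.10, adjusted p = 0.00720).

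RAD51AP1, which stimulates the strand exchange protein, measured 9.94, 10.19 and 10.40 in pre-miR-371 cells and 9.51, 9.20 and 9.28 in GFP vector cells in erlotinib, against 10.24, 10.41 and 10.49 in pre-miR-371 cells and 10.35, 10.30 and 10.25 in GFP vector cells in DMSO. The pre-miR-371 arrays overlapped between erlotinib and DMSO, and their change of -0.20 did not pass (standard error 0.12, adjusted p = 0.181). In GFP vector cells the log2 change was -0.97 (adjusted p = 1.29e-05), and in erlotinib the lines differed by 0.85 (standard error 0.12, adjusted p = 8.22e-04), the highest value of the 32 in that comparison. The difference of its responses, 0.77 (adjusted p = 0.0359), lost its call when any 1 of 10 arrays was left out (adjusted p up to 0.0907). RAD51C, XRCC2 and XRCC3 encode paralogs of the strand exchange protein and were lower in both lines, with -0.53, -0.36 and -0.67 in pre-miR-371 cells and -0.77, -0.78 and -1.12 in GFP vector cells. Their differences of responses were 0.24, 0.42 and 0.45 and did not pass (adjusted p = 0.155, 0.122 and 0.243). The XRCC2 probe set may also bind other transcripts.

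The 3 genes of resection and dissolution fell in both lines and responded differently in each. EXO1, the nuclease that lengthens the single-stranded end, measured 6.94, 7.01 and 6.75 in pre-miR-371 cells and 6.46, 6.46 and 6.46 in GFP vector cells in erlotinib, against 7.95, 8.01 and 7.96 in pre-miR-371 cells and 8.32, 8.17 and 8.10 in GFP vector cells in DMSO. The 4 groups were fully separate, with GFP vector cells lowest in erlotinib and highest in DMSO. Its fold change was -1.07 in pre-miR-371 cells and -1.74 in GFP vector cells (standard error 0.08 each), with a difference of 0.66 (standard error 0.11, adjusted p = 0.00943). BLM, the helicase that undoes joined molecules, measured 7.50, 7.70 and 7.60 in pre-miR-371 cells and 7.22, 7.14 and 7.20 in GFP vector cells in erlotinib, against 8.50, 8.47 and 8.47 in pre-miR-371 cells and 8.74, 8.61 and 8.59 in GFP vector cells in DMSO. The groups were again separate, and 54.4% and 36.4% of the DMSO level remained. RMI1, a subunit of the BLM complex, fell less (-0.21 in pre-miR-371 cells and -0.62 in GFP vector cells) but with a difference of 0.40 that passed the test (adjusted p = 0.0119).

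Of the 8 genes in the Fanconi anaemia pathway, erlotinib lowered 6 and raised 1 in pre-miR-371 cells, and lowered 7 in GFP vector cells. FANCI, a subunit of the clamp that is ubiquitinated at cross-links, measured 9.86, 9.88 and 9.89 in pre-miR-371 cells and 9.33, 9.32 and 9.24 in GFP vector cells in erlotinib, against 10.27, 10.38 and 10.28 in pre-miR-371 cells and 10.39, 10.28 and 10.25 in GFP vector cells in DMSO. The lines overlapped in DMSO only. FANCI fell by 0.44 and 1.01 on the log2 scale, a difference of 0.57 (standard error 0.08, adjusted p = 0.00742), and all 3 of its probe sets fell in both lines. UBE2T, the ubiquitin-conjugating enzyme of that reaction, was at -0.75 in pre-miR-371 cells and -1.24 in GFP vector cells, and USP1, the protease that removes the ubiquitin, was at -0.41 and -0.77. Both differences of responses passed (0.49 with adjusted p = 0.0128 and 0.36 with adjusted p = 0.0247), but that of USP1 was lost when any 1 of 7 arrays was left out (adjusted p up to 0.0737). The other USP1 probe set, with a mean of 9.01, had a difference of 0.75 (adjusted p = 0.013, limma over all probe sets).

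FANCL, the ubiquitin ligase subunit of the same pathway, went the other way. It measured 9.53, 9.51 and 9.63 in pre-miR-371 cells and 9.18, 9.01 and 9.13 in GFP vector cells in erlotinib, against 9.0, 9.07 and 9.16 in pre-miR-371 cells and 9.05, 8.95 and 8.94 in GFP vector cells in DMSO. The pre-miR-371 arrays in erlotinib lay above the other 9, which overlapped. FANCL rose with erlotinib in pre-miR-371 cells (0.48, standard error 0.07, adjusted p = 6.48e-05), and had a value of 0.13 in GFP vector cells (adjusted p = 0.149). In erlotinib the lines differed by 0.45 (adjusted p = 0.00142). The difference of its responses, 0.35, missed the threshold (adjusted p = 0.0925). Of the other core complex genes, FANCB and FANCM, a DNA translocase, were lower in both lines (-0.91 and -0.67 in pre-miR-371 cells, -1.3 and -1.29 in GFP vector cells), FANCE was lower in both (-0.48 and -0.51, with a difference of 0.03 and a standard error of 0.13), and FANCG was at -0.17 in pre-miR-371 cells (adjusted p = 0.0924) and -0.31 in GFP vector cells (adjusted p = 0.00368), with a difference of 0.15 that did not pass (standard error 0.11, adjusted p = 0.578). FANCB was at 4.52 to 4.67 in GFP vector cells in erlotinib, near the array medians, so that the size of its fold is uncertain. FANCM (5.04 to 5.77) and XRCC3 (5.03 to 5.45) were also dim in that group, with the same limit. MSH6, which recognises mismatches after replication, was lower in both lines (-0.51 and -0.74) with a difference of 0.23 that did not pass (adjusted p = 0.134).

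The S phase and mitosis genes gave the course against which the repair genes were read. All 28 S phase genes were lower with erlotinib in both lines (median -0.80 in pre-miR-371 cells and -1.25 in GFP vector cells). The difference of responses was positive and passed the test for 21. Of the 25 mitosis genes, erlotinib lowered 18 and raised 2 in pre-miR-371 cells and lowered 24 in GFP vector cells (median -0.46 and -0.93), and 15 had a positive difference that passed. In erlotinib 23 S phase genes and 24 mitosis genes were higher in pre-miR-371 cells. In DMSO 5 S phase genes were lower and 3 mitosis genes higher in pre-miR-371 cells. These lists were chosen with earlier results of these data known, so their direction is a reference course and no independent finding.

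**Figure D3:**
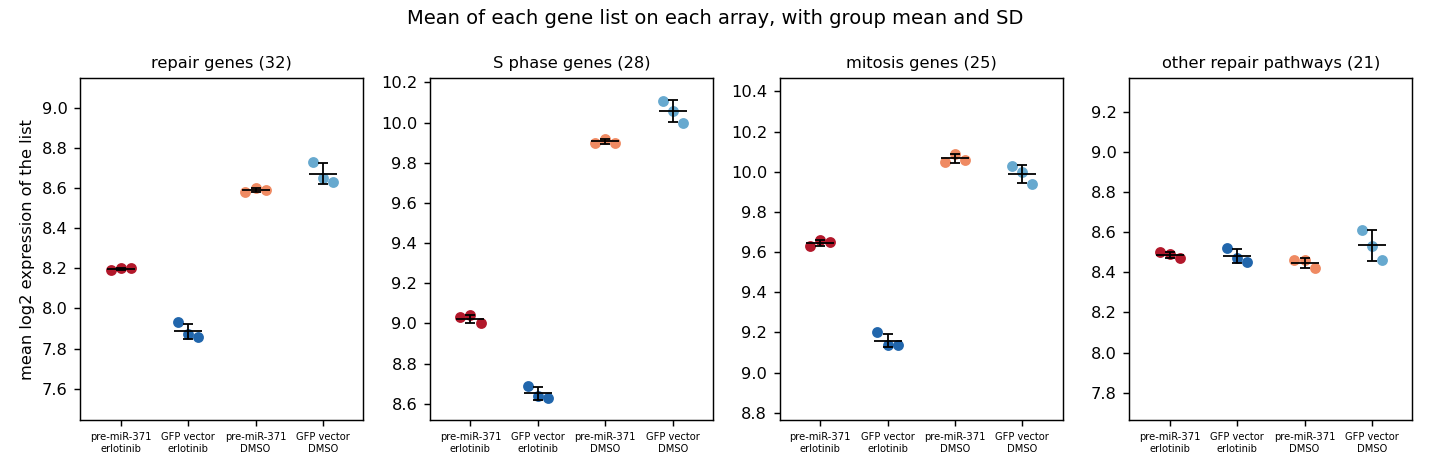
Mean log2 expression of 4 gene lists (y axes, all spanning the same range) on each array (points) with the mean and SD over 3 arrays, for pre-miR-371 cells in erlotinib, GFP vector cells in erlotinib, pre-miR-371 cells in DMSO and GFP vector cells in DMSO. The repair genes (8.20, 7.89, 8.59 and 8.67) and the S phase genes (9.02, 8.65, 9.90 and 10.06) share their order, the mitosis genes (9.65, 9.16, 10.07 and 9.99) differ in the order of the DMSO groups, and the other repair pathways span 8.45 to 8.53.

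The S phase mean was highest in GFP vector cells in DMSO, followed by pre-miR-371 cells in DMSO, pre-miR-371 cells in erlotinib and GFP vector cells in erlotinib. The mean of the 32 repair genes had the same order, and 18 of the 32 had it singly, as did 24 of 28 S phase genes, 6 of 25 mitosis genes and 9.18% of all genes. The order of the 2 DMSO groups rests on differences that did not pass the test for any repair gene but CLSPN. Fold changes within the range of the 53 proliferation genes in both lines (-1.72 to 0.20 in pre-miR-371 cells and -2.50 to -0.10 in GFP vector cells) were found for 28 repair genes and 34.6% of all genes. Within the narrower range of the S phase genes (-1.72 to -0.37 and -2.50 to -0.80) lay 11 repair genes and 7.09% of all genes. The repair genes were CHEK1, CLSPN, RAD54L, RAD54B, XRCC3, BLM, EXO1, FANCB, FANCM, FANCI and UBE2T. CLSPN, XRCC3, FANCB and FANCM were dim in GFP vector cells in erlotinib, so the sizes of their folds are uncertain.

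By the tests, 11 repair genes were lower in both lines with a positive difference of responses, as were 1.15% of all genes: CHEK1, CLSPN, BARD1, RAD54L, RAD54B, BLM, EXO1, RMI1, FANCI, UBE2T and USP1. For BARD1 the fall in pre-miR-371 cells passed in 1 of its 3 probe sets. The 18 repair genes with the S phase order had fold changes within the range of the proliferation genes. That order places both DMSO groups above both erlotinib groups, so a fall in each line is given by the order itself. Their place in the range is therefore largely set by the order and is no separate result. A different order was no departure from the proliferation genes as a whole, since only 6 of 25 mitosis genes had the S phase order. CHEK1, RAD51C, RAD51AP1, FANCB, FANCI and ATR had the order of the mitosis mean, with fold changes within the range. The mitosis order sets a fall in both lines as well, so the same limit applies. Outside the range in at least 1 line lay 4 genes. They were ATM and MRE11, which rose in both lines (22.4% of all genes did), FANCL, which rose in pre-miR-371 cells, and NBN, which did not pass. For MRE11 and NBN the limits from their other probe sets, given above, apply. PALB2, RAD50, FANCE and ATR were lower in both lines, but their differences of responses were -0.04 to 0.11.

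**Figure D4:**
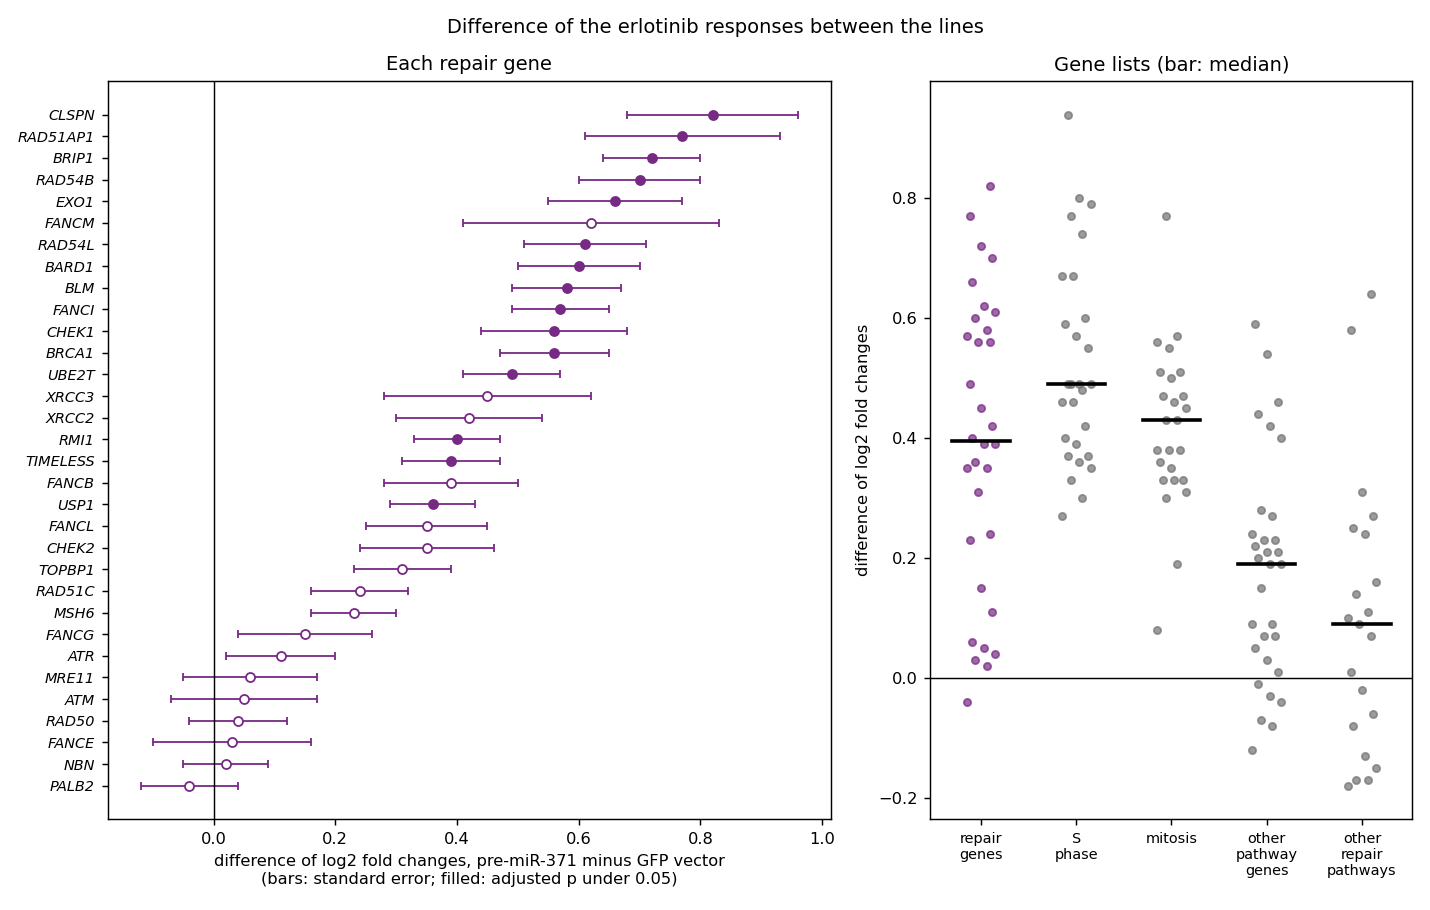
Left, difference of the log2 fold changes with erlotinib (x axis, pre-miR-371 minus GFP vector; bars are standard errors) for each of the 32 repair genes, filled where the adjusted p was under 0.05. Right, the same difference (y axis) for every gene of 5 lists with the median as a bar: 0.40 for the repair genes, 0.49 for S phase, 0.43 for mitosis, 0.19 for other pathway genes and 0.09 for other repair pathways.

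Other genes of the same pathways and of other repair pathways moved less uniformly. Of 31 measured genes of homologous recombination, the checkpoint and the Fanconi anaemia pathway outside the 32, 13 were lower and 8 higher with erlotinib in pre-miR-371 cells (22.2% and 24.8% of all genes). In GFP vector cells 17 of the 31 were lower and 7 higher (23.4% and 26.5% of all genes). Between the lines, 11 of the 31 were higher and 3 lower in pre-miR-371 cells in erlotinib (6.5% and 9.46% of all genes). In DMSO 2 of the 31 were higher (1.62% of all genes). None passed limma's test for the difference of responses (1.44% of all genes were positive and 0.561% negative). At an unadjusted p under 0.05, 14 were positive and 0 negative, with no share of all genes given. TIPIN, the partner of TIMELESS at the fork, was lower in both lines (-1.56 and -1.83), and so was CDC25A, the phosphatase that CHEK1 restrains (-1.82 and -2.22). TP53BP1, which protects broken ends from resection, rose in both lines (0.80 in pre-miR-371 cells and 0.83 in GFP vector cells).

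Of 21 measured genes of end joining, mismatch, nucleotide excision and base excision repair, 7 were lower and 6 higher with erlotinib in pre-miR-371 cells (22.2% and 24.8% of all genes). In GFP vector cells 8 of the 21 were lower and 6 higher (23.4% and 26.5% of all genes). ERCC5 and XPC, which act in nucleotide excision repair, rose in both lines (1.34 and 0.90 in pre-miR-371 cells, 1.4 and 1.08 in GFP vector cells). NEIL3, a DNA glycosylase, and PRKDC, the kinase of end joining, were the 2 of these genes whose difference of responses was positive and passed the test (0.64 with adjusted p = 0.0182 and 0.58 with adjusted p = 0.0385). Of 10 measured p53 target genes, 3 were lower and 4 higher with erlotinib in pre-miR-371 cells, against 4 and 4 in GFP vector cells, beside the same shares of all genes. CDKN1A, the cell cycle inhibitor, was lower with erlotinib in both (-0.90 in pre-miR-371 cells and -0.91 in GFP vector cells).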

How the data were processed

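RNA from 4 groups was hybridised to 12 Affymetrix Hgu133plus2 arrays. The authors deposited log2 expression values per probe set. Quantile normalization is named in the paper, and RMA and affy in the submitters' processing notes without a version, so background, scaling between arrays and summary over probes are in the values already. Probe sets were named through the platform annotation with symbols updated to a GRCh38.p14 table. Of 54675 probe sets, 41097 carried 1 symbol, 1801 several and 11777 none, which gave 19775 genes, 19735 of them matched by identifier. No 2 arrays were identical (0 pairs), and upper quartiles were 6.72 to 6.92.

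All 12 arrays entered 1 linear model with a mean for each group (limma 3.58.1 under R 4.3.3, moderated by eBayes), from which 5 contrasts were taken, with Benjamini-Hochberg adjustment over all genes and a threshold of 0.05. The code was tested on simulated data. Groups and replicate numbers come from the labels. The repair genes and comparison lists were chosen with earlier results of these data known. All repair genes are named by role, in full those passing in 3 or more contrasts with the largest differences, those passing in none and those moving against the proliferation genes. Alternatives were other summaries of probe sets, a filter on dim genes, fewer groups, a replicate block, other scalings and variance models, a fold over 1.5, the methods' t-test and leaving out each array. Some listed genes are not reported here. Promoter and miRNA sequences are from RefSeq. Tables and figures used Python 3.11.15, pandas 2.3.3 and matplotlib 3.10.9.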

Additional observations from a re-analysis of the deposited data

Results flagged for a closer look

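For 15 repair genes the response to erlotinib differed between the lines by a test of the difference itself (limma, adjusted over 19775 genes), and each value is the log2 fold change in pre-miR-371 cells minus that in GFP vector cells. Among checkpoint genes the difference was 0.82 for CLSPN, 0.56 for CHEK1 and 0.39 for TIMELESS. Among the BRCA complexes it was 0.72 for BRIP1, 0.60 for BARD1 and 0.56 for BRCA1. In strand exchange it was 0.77 for RAD51AP1, 0.70 for RAD54B and 0.61 for RAD54L. In resection and dissolution it was 0.66 for EXO1, 0.58 for BLM and 0.40 for RMI1. In the Fanconi anaemia pathway it was 0.57 for FANCI, 0.49 for UBE2T and 0.36 for USP1. The limits from the other probe sets of CLSPN, BRCA1 and BRIP1, given above, apply here. For 11 of these genes the call held whichever of the 12 arrays was left out. It was lost for CHEK1 with any 1 of 10 arrays left out (adjusted p up to 0.0964), for RAD51AP1 with any 1 of 10 (up to 0.0907), for TIMELESS with any 1 of 11 (up to 0.0954) and for USP1 with any 1 of 7 (up to 0.0737). Groups of 3 arrays were not tested for outlying arrays.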

How the results depend on the processing

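The counts of repair genes lower with erlotinib were 21 to 23 in pre-miR-371 cells and 28 in GFP vector cells over the fits that each left out 1 array. In the same fits the count higher in pre-miR-371 cells in erlotinib was 17 to 22. For DMSO the count lower in pre-miR-371 cells ran from 0 to 2, and the count with a positive difference of responses that passed was 11 to 15. With a fold over 1.5 as well, the counts were 10 in pre-miR-371 cells, 2 between the lines in erlotinib, 0 in DMSO and 7 for the difference (those of all genes are given above). The count in DMSO (1) was 2 with the mean of all probe sets, 6 with genes of a mean log2 of at least 6, 0 with only the groups compared, 0 with quantile normalization repeated, 3 with a trend and robust variance, 6 with array weights, 10 with the methods' t-test and 0 with it after Benjamini-Hochberg adjustment. Replicate numbers were not taken to pair the arrays, since r between same-numbered arrays was over 0.1 in 7 of 18 pairs and not in all (-0.057 to 0.198). With the replicate block the counts were 22, 28, 22, 1 and 13, and the calls lost were CHEK1 and RAD51AP1 for the difference (adjusted p = 0.0693 and 0.0626), ATR in pre-miR-371 cells (0.0527) and TOPBP1 between the lines in erlotinib (0.0508). Centring arrays on their medians moved the median of all genes to -0.22 in pre-miR-371 cells and -0.19 in GFP vector cells, that of the repair genes to -0.53 and -0.95, and ended the calls of MRE11, as did the mean of all probe sets. With that mean RAD50 reversed to 0.03 (adjusted p = 0.751) in pre-miR-371 cells, and the call of BARD1 there was lost (-0.1, adjusted p = 0.0842). The causes were not tested. In erlotinib the calls between the lines of TOPBP1, CHEK2, XRCC2, CLSPN and MSH6 were each lost without some array (adjusted p up to 0.138, 0.0880, 0.124, 0.0668 and 0.0610).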
